A study of Mus musculus with 8 samples.

Results

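AtT-20 cells that carried EGFR and received EGF for 3 h were compared with AtT-20 cells that carried Neo and received water, also labelled 3 h, so that receptor line and ligand were changed at once. AtT-20 is a mouse pituitary tumour line of corticotrope type, the cell that makes proopiomelanocortin (Pomc), the precursor of the hormone ACTH. The comparison covered every protein-coding gene with an FPKM (fragments per kilobase of transcript, scaled to the mapped total of the library) of at least 1 in 2 or more of the 4 libraries. This rule kept 9143 of 9442 protein-coding genes, out of 12173 genes in all. Near the edge of the rule, Klk1b26 was kept with a second-highest value of 1.03 FPKM, and Arg2 was left out with one of 0.963 FPKM.

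The series holds 8 libraries in 4 groups of 2: the Neo control line in water, the EGFR line in water, and the EGFR line with EGF for 3 h or for 18 h. All cells were grown in DMEM with serum and antibiotics. Which species the introduced EGFR came from, and whether either line is 1 clone or a pool, is not stated in the labels. No Neo library received EGF, so the effects of the line and of the ligand cannot be told apart within this comparison. For that reason the EGFR line in water is given beside many of the named genes. The labels do not say that replicates were separate cultures, so the p-values speak only of the spread among these libraries, and that spread may be technical. Below, values are FPKM, in the order Neo 1, Neo 2, then EGF 1 and EGF 2 for the EGFR line with EGF for 3 h. Fold changes are differences of mean log2(FPKM + 1), a scale that shrinks changes of weakly expressed genes, and are followed by the limma standard error (SE) and the adjusted p.

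EGFR is a receptor tyrosine kinase. When EGF binds, it recruits adapters that switch on the RAS, RAF, MEK and ERK kinases, the PI3K and AKT kinases, and STAT factors. ERK raises a set of early genes, among them phosphatases and adapters that dampen the pathway again, while AKT keeps FOXO factors out of the nucleus and lowers their targets. In corticotropes Pomc is driven by Tbx19, Pitx1, Neurod1 and the NR4A receptors and is held down by glucocorticoids. The series' title places STAT3 between EGF and Pomc transcription.

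Corticotrope markers were present in all 4 libraries. Pomc was the most abundant protein-coding gene at 6981 to 8930 FPKM, and Pcsk1, which cleaves its product, averaged 397 FPKM in Neo and 363 FPKM with EGF. Of 21 genes listed for other pituitary lineages, 3 were tested (Rbp4, Gata2 and Sox2), with means of 3.31 to 13.6 FPKM. Genes listed for fibroblasts, endothelial cells and blood cells were not analysed here. The median FPKM of the genes tested lay between 18.6 and 18.8 in the 4 libraries. Small RNA genes, which are left out, made up 39.0% of the FPKM total in Neo 1, 33.2% in Neo 2, 31.6% in EGF 1 and 29.1% in EGF 2. The part of that difference in the results was not tested.

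Most genes differed little, and a small group differed strongly. The middle 98% of log2 fold changes lay between -0.58 and 0.61, with a median of -0.02. Of the 9143 genes, 3773 passed an adjusted p of 0.05 (41.3%), 1636 of them higher (17.9%) and 2137 lower (23.4%) in EGF-treated EGFR cells. The median size of a called change was 0.22 on the log2 scale. Only 99 called genes were at least 1.5-fold higher and 85 at least 1.5-fold lower. At 2-fold or more there were 33 higher genes (0.361% of those tested) and 19 lower genes (0.208%). In the same fit, 979 genes (10.7%) passed between the EGFR and Neo lines in water, and 3616 (39.5%) passed between EGF and water in the EGFR line. These 2 steps share the EGFR water libraries and add up to the comparison described here.

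Which way the small changes leaned depended on scaling. With libraries scaled to a common sum over protein-coding genes, 2277 genes were higher and 1605 lower, so that 58.7% of calls were higher, against 43.4% with FPKM as deposited. The count of lower genes was 1411 without Neo 1 and 1399 without EGF 1. The counts at 2-fold held within 31 to 36 higher and 17 to 20 lower genes when each of the 8 libraries was left out. Replicates agreed closely, with a standard deviation of their log2 difference across genes of 0.064 in Neo and 0.063 with EGF.

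**Figure D1:**
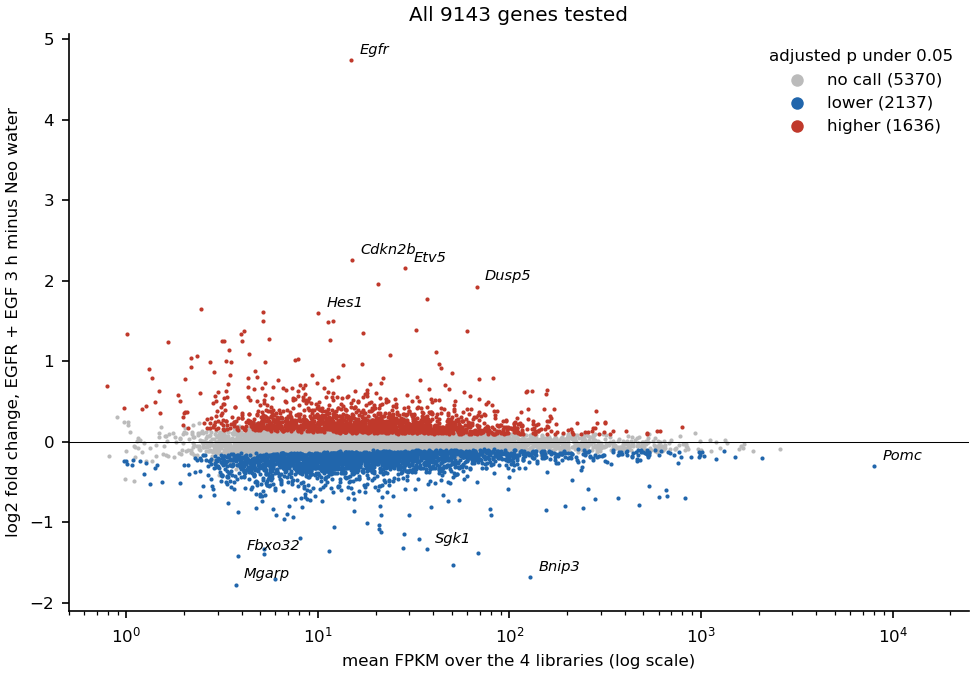
Log2 fold change (EGFR line with EGF for 3 h minus Neo in water, vertical axis) against mean FPKM over the 4 libraries (horizontal axis, log scale), with 1 point for each of the 9143 genes tested, red where called higher (1636), blue where called lower (2137) and grey where not called. Egfr stands alone at 4.74, and most called genes lie close to 0.

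Egfr itself checks the labels. It measured 0.227 and 0.0663 FPKM in Neo and 28.8 and 30.6 FPKM with EGF, and the groups lay far apart. In the EGFR line in water it was 25.9 and 27.5 FPKM, so the receptor line already carried this transcript without ligand. The log2 fold change was 4.74 (SE 0.07, limma adjusted p = 8.6e-12), the largest of all genes tested. Egfr (ENSMUSG00000020122) lies on chromosome 11 of the mm10 assembly, from 16752203 to 16918158, on the plus strand. It is 1 of 14 genes that entered the test through the EGF libraries alone, of which 11 were called; such a gene had to differ. Another 8 entered through Neo alone, and 7 of these were called.

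Of 26 tested genes for ERBB receptors, ligands and adapters, 9 were higher and 6 lower, with a median of 0.03 against -0.02 for all genes. The lower share, 23.1%, was that of all genes (23.4%), and the higher share was 34.6% against 17.9%. The higher genes include Egfr itself, which entered the test through the EGF libraries alone and so had to differ. Erbb3, the kinase-poor partner receptor for neuregulins, was 5.64 and 5.55 FPKM in Neo and 3.44 and 3.52 FPKM with EGF. Its groups did not overlap, and the log2 fold change was -0.56 (SE 0.05, adjusted p = 1.4e-05). In EGFR cells in water it stood at 5.59 and 5.55 FPKM, level with Neo. Rhbdf2, which guides the sheddase ADAM17 that frees ERBB ligands, rose from 1.92 and 1.76 FPKM (1.97 and 1.93 FPKM in EGFR cells in water) to 6.46 and 6.23 FPKM, a log2 fold change of 1.37 (SE 0.06, adjusted p = 6.7e-08). Lrig1, a membrane protein that restrains ERBB receptors, rose by 0.40 (adjusted p = 6.7e-05), and Errfi1, a cytoplasmic EGFR inhibitor, by 0.26 (adjusted p = 0.0020). Of the kinases downstream, Map2k1 fell by 0.32 and Mapk3 by 0.33 on the log2 scale. For Mapk3 the EGFR line in water stood at 26.2 FPKM on average, against 35.0 in Neo and 27.5 with EGF. The count of lower genes in this list was 3 without Neo 1, without EGF 1 or with the common-sum scaling.

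Most genes of ERK output and feedback were higher. Of 23 tested, 16 were higher (69.6%, against 17.9% of all genes) and 6 lower (26.1%, against 23.4%), with a median log2 fold change of 0.34. Etv5, an ETS transcription factor, measured 10.0 and 9.60 FPKM in Neo and 46.7 and 47.8 FPKM with EGF. That is a log2 fold change of 2.16 (SE 0.04, adjusted p = 9.9e-11), and EGFR cells in water at 9.72 and 10.0 FPKM matched Neo. Dusp5, a nuclear phosphatase that acts on ERK, rose from 28.7 and 26.2 FPKM to 106 and 109 FPKM, by 1.93 (SE 0.04, adjusted p = 3.6e-10). Its level in EGFR cells in water was 29.0 and 28.0 FPKM. Hbegf, which encodes a further ligand of EGFR, was 6.40 and 6.42 FPKM in Neo and 16.8 in both EGF libraries, a rise of 1.26 (SE 0.04, adjusted p = 1.4e-08), with 6.30 and 6.45 FPKM in water. Plaur, the urokinase receptor, rose from 1.58 and 1.43 FPKM to 4.75 and 5.23 FPKM, by 1.26 (SE 0.08, adjusted p = 7.2e-07), with 1.46 and 1.14 FPKM in water. In all 4 genes the EGF libraries stood above both other groups.

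Other dampers of the pathway rose with them. Spred1, which blocks RAF activation, rose from 1.91 and 2.13 FPKM to 5.35 and 4.72 FPKM (adjusted p = 1.3e-06), Dusp4, another nuclear ERK phosphatase, by 0.92 (adjusted p = 7.8e-08), and Spred2 by 0.35 (adjusted p = 0.0030). Among transcription factors, Maff rose by 0.67 and Egr2 by 0.43. The 6 lower genes were Jun, Btg2, Etv1, Atf3, Dusp10 and Fosl2, with log2 fold changes of -0.37 to -0.18. Jun, a component of the AP-1 factor, averaged 18.1 FPKM in Neo and 13.8 FPKM with EGF (adjusted p = 6.3e-05). Without Neo 1, 3 genes of the list were lower. Etv5 shares 42.8% of its transcript, Dusp5 22.1% and Etv1 21.8% with another annotated gene at 95% identity or more, so how their reads were assigned is uncertain.

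Stat3 did not pass the test. It measured 33.7 and 33.8 FPKM in Neo and 32.4 and 33.9 FPKM with EGF, and the groups overlapped (log2 fold change -0.02, 95% interval -0.11 to 0.06, adjusted p = 0.65). The EGFR line in water was lower than both, at 28.6 and 28.1 FPKM, with -0.24 against Neo (adjusted p = 0.0032) and 0.22 from water to EGF (adjusted p = 0.0013). Socs3, which STAT3 induces and which blocks cytokine receptors, was 4.48 and 4.28 FPKM in Neo and 6.49 and 6.34 FPKM with EGF. It rose by 0.46 (SE 0.06, adjusted p = 0.00013), from 3.85 and 3.56 FPKM in EGFR cells in water. Of 19 tested genes of the STAT3 pathway and its targets, 7 were higher (36.8%, against 17.9% of all genes) and 3 lower (15.8%, against 23.4%), with a median of 0.05. The higher genes include Il6ra, which entered the test through the EGF libraries alone and so had to differ.

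The 3 lower genes of this list included Pim1, a survival kinase, which fell from 8.82 and 8.83 FPKM to 5.77 and 5.90 FPKM (log2 fold change -0.52, adjusted p = 3.1e-05). Its relative Pim3 (-0.41) and the angiogenic factor Vegfa (-0.43) were also lower. Bcl2l1, which encodes the survival protein BCL-XL, rose from 32.4 and 33.6 FPKM to 85.5 and 88.7 FPKM, by 1.37 (SE 0.04, adjusted p = 1.9e-09), with 34.7 and 34.0 FPKM in EGFR cells in water. Il6ra, the IL-6 receptor chain, went from 0.625 and 0.523 FPKM to 2.77 and 2.70 FPKM, with 0.608 and 0.604 FPKM in water, and entered the test through the EGF libraries alone. Lifr, the LIF receptor, was not called, at 5.30 and 5.53 FPKM on average in Neo and with EGF.

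Several of the largest increases lay outside these pathways. Cdkn2b, the CDK inhibitor p15, was 4.47 and 4.56 FPKM in Neo and 25.2 and 25.6 FPKM with EGF. Its log2 fold change of 2.26 (SE 0.04, adjusted p = 1.2e-10) was second to that of Egfr among genes at 5 FPKM or more. Gprc5c, an orphan G protein-coupled receptor, rose from 8.19 and 7.42 FPKM to 31.5 and 35.3 FPKM, by 1.96 (SE 0.07, adjusted p = 1.4e-08), with a mean of 6.59 FPKM in water. Enc1, a kelch protein that binds actin, rose from 16.4 and 16.1 FPKM to 57.5 and 58.4 FPKM, by 1.77 (SE 0.04, adjusted p = 2.1e-10). For Cdkn2b and Enc1 the EGFR line in water, at 4.66 and 4.77 FPKM and at 15.2 and 14.7 FPKM, lay near Neo.

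Hes1 and Stc1 took a different course across the groups. Hes1, a repressor known as a Notch target, was 4.04 and 4.88 FPKM in Neo, 2.40 and 2.92 FPKM in EGFR cells in water and 16.2 and 14.8 FPKM with EGF. It rose by 1.60 against Neo (SE 0.08, adjusted p = 2.4e-07), by way of -0.58 in the line step and 2.18 in the EGF step. Stc1, a secreted glycoprotein, was 5.62 and 5.90 FPKM in Neo, 3.44 and 3.76 FPKM in water and 19.1 and 17.1 FPKM with EGF, and was higher than in Neo (adjusted p = 4.2e-08) by way of -0.56 and 2.05 in the line and EGF steps. The other members of the 15 largest increases were Sh2d5 (1.62), Synj2 (1.51), Nab2 (1.48), Plk2 (1.39) and Scml4 (1.35). Nab2, which represses EGR factors, has 42.2% of its exon bases in other annotated genes. Plk2, a stress-linked polo kinase, rose from 17.5 and 17.3 FPKM to 46.2 and 48.2 FPKM and was 17.4 FPKM in both water libraries.

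**Figure D2:**
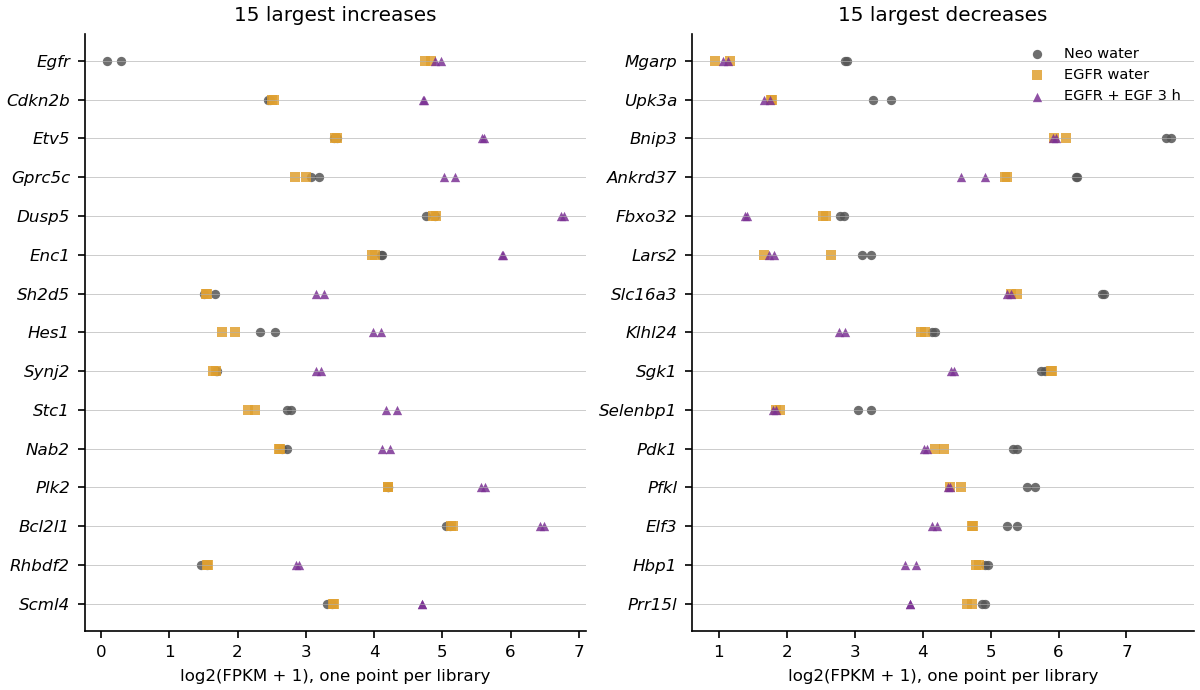
Level of the 15 genes with the largest called increases (left) and decreases (right) as log2(FPKM + 1), with 1 point per library for Neo in water (grey circles), the EGFR line in water (orange squares) and the EGFR line with EGF for 3 h (purple triangles). On the left only Egfr has its water points beside the EGF points, whereas on the right the water points of Mgarp, Bnip3, Slc16a3 and Selenbp1 lie beside theirs.

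Glycolysis and hypoxia-induced genes were lower almost throughout. Hypoxia-inducible factor binds the letters ACGTG in many of these genes and raises glucose transport, glycolytic enzymes and lactate export when oxygen is short. Of 36 tested, 35 were lower and 1 higher, against 23.4% of all genes lower, and the median log2 fold change was -0.69. The median was -0.58 between the EGFR and Neo lines in water and -0.08 from water to EGF. Bnip3, a mitophagy receptor, was 191 and 201 FPKM in Neo and 61.5 and 59.6 FPKM with EGF, and EGFR cells in water had 60.4 and 68.0 FPKM. Its log2 fold change was -1.68 (SE 0.07, adjusted p = 3.7e-08). Bnip3 (ENSMUSG00000078566) lies on chromosome 7 from 138890836 to 138909519 on the minus strand, and 92.3% of its transcript is shared with other annotated genes, so the assignment of its reads is uncertain.

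The 250 bases before the RefSeq start of Bnip3, chr7:138909507-138909756 on the minus strand of GRCm38.p6, are shown because this gene had the largest decrease above 100 FPKM and holds the ACGTG letters on both strands, as the overlapping E-box CACGTG (capitals).
Bnip3: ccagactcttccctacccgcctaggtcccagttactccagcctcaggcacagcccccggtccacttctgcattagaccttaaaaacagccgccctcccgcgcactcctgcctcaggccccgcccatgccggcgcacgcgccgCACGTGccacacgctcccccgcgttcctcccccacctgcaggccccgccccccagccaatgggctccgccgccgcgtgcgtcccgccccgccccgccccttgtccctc
Of the 32 tested list members with a RefSeq promoter, 13 (40.6%) hold ACGTG on either strand in this window, as do 23.3% of all 7031 tested genes with a promoter. A match describes the letters and is no evidence of binding.

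Along the pathway each step was lower. Slc2a1, the glucose transporter GLUT1, fell by 0.31 on the log2 scale (adjusted p = 0.0018). Hk2, which phosphorylates glucose, fell by 0.81, Gpi1 by 0.80 and Pfkl, a subunit of the rate-setting phosphofructokinase, by 1.21. Pfkl was 45.6 and 49.6 FPKM in Neo, 20.1 and 22.6 FPKM in EGFR cells in water and 20.2 and 19.8 FPKM with EGF (SE 0.06, adjusted p = 2.6e-07). Aldoa fell from a mean of 1026 FPKM to 633 FPKM, Pgk1 from 346 to 211 FPKM, Pkm from 791 to 522 FPKM and Ldha, which makes lactate, from 601 to 348 FPKM. Slc16a3, the lactate exporter MCT4, was 101 and 98.2 FPKM in Neo and 38.4 and 36.8 FPKM with EGF, a log2 fold change of -1.38 (SE 0.05, adjusted p = 2.3e-08). Pdk1, a kinase that inhibits pyruvate dehydrogenase, fell from 39.2 and 40.9 FPKM to 15.3 and 15.8 FPKM, by 1.31 (SE 0.06, adjusted p = 8.8e-08). In every one of these genes the Neo libraries stood above both EGF libraries.

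Mgarp, a mitochondrial protein induced by hypoxia, had the most negative value of all genes tested. It was 6.23 and 6.36 FPKM in Neo, 0.916 and 1.24 FPKM in EGFR cells in water and 1.18 and 1.09 FPKM with EGF (log2 fold change -1.77, SE 0.09, adjusted p = 1.5e-07). Ankrd37 fell in both steps, from 76.5 and 75.5 FPKM in Neo through 36.9 and 35.9 FPKM to 22.6 and 29.1 FPKM (log2 fold change -1.53, adjusted p = 9.2e-07). Of its exon bases, 26.4% lie in other annotated genes. Eno1, Gapdh, Pgk1, Pkm and Mif have 65.5 to 93.4% of their transcripts shared with copies, so their reads could be split. The only higher gene was Bhlhe40, a repressor that is also a clock component. It was 7.03 and 6.46 FPKM in Neo, 2.92 and 2.15 FPKM in EGFR cells in water and 9.61 and 10.6 FPKM with EGF. Its log2 fold change was 0.52 (SE 0.09, adjusted p = 0.0014), from -1.14 in the line step and 1.66 in the EGF step.

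**Figure D3:**
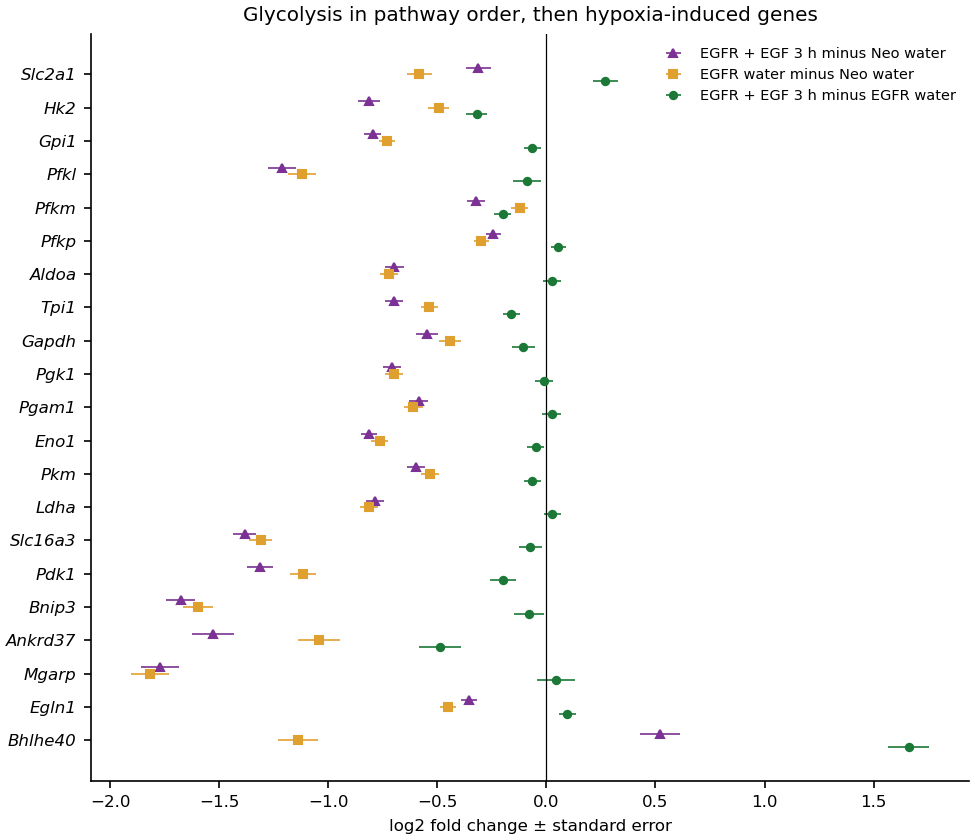
Log2 fold change with its standard error for glycolysis genes in pathway order and then hypoxia-induced genes, for the comparison (purple triangles), the line step in water (orange squares) and the EGF step (green circles). For Bnip3 and Slc16a3 the orange and purple marks lie near each other with the green mark near 0, and Bhlhe40 has its orange and green marks on opposite sides of 0.

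Genes of cholesterol and fatty acid synthesis went the other way. These enzymes turn acetyl-CoA into cholesterol and fatty acids, and SREBP factors raise most of them. Of 35 tested, 28 were higher, against 17.9% of all genes, 1 was lower and 6 were not called, with a median log2 fold change of 0.41. The medians of the steps were 0.22 for the line in water and 0.17 for EGF. Hsd17b7, a sterol reductase, had the largest rise of the list, from 11.8 and 10.5 FPKM through 16.4 and 17.8 FPKM to 23.0 and 22.5 FPKM (log2 fold change 0.97, SE 0.06, adjusted p = 8.1e-07). The 3 groups did not overlap.

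The early steps of the pathway moved too. Hmgcs1, which makes HMG-CoA, averaged 95.9 FPKM in Neo, 121 FPKM in EGFR cells in water and 148 FPKM with EGF, a rise of 0.62 (SE 0.04, adjusted p = 3.0e-06). Its 250 bases before the RefSeq start, chr13:119690101-119690350 on the plus strand of GRCm38.p6, are shown because it was the only 1 of 25 list members with a promoter that holds the sterol element letters TCACNCCAC (capitals). Of all tested genes with a promoter, 0.9% hold them on either strand.
Hmgcs1: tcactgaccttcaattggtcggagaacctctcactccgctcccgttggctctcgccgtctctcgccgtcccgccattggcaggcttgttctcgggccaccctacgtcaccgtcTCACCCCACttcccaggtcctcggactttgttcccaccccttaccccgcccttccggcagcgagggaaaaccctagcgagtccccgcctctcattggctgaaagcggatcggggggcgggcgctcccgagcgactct

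Further along, Idi1 rose from 56.7 and 63.0 FPKM through 82.5 and 83.4 FPKM in water to 107 and 102 FPKM, by 0.79 (SE 0.05, adjusted p = 6.8e-07). Lss, which closes the sterol rings, rose from 52.1 and 48.9 FPKM through 72.2 and 70.0 FPKM in water to 81.0 and 93.8 FPKM, by 0.78 (SE 0.06, adjusted p = 4.9e-06). Some enzymes had reached their level in the EGFR line in water. Mvk averaged 21.2 FPKM in Neo, 30.9 FPKM in water and 29.9 FPKM with EGF, and Pmvk 68.3, 96.1 and 94.2 FPKM in the same order. Fasn, the fatty acid synthase, rose by 0.39 (adjusted p = 1.4e-05), from 71.7 FPKM to 94.2 FPKM on average. The lower gene was Me1, malic enzyme, at 32.8 FPKM in Neo and 28.6 FPKM with EGF (log2 fold change -0.19, adjusted p = 0.0030). Idi1, Fdps, Fdft1, Acat2, Acaca and Me1 share 33.3 to 76.9% of their transcripts with annotated copies.

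**Figure D4:**
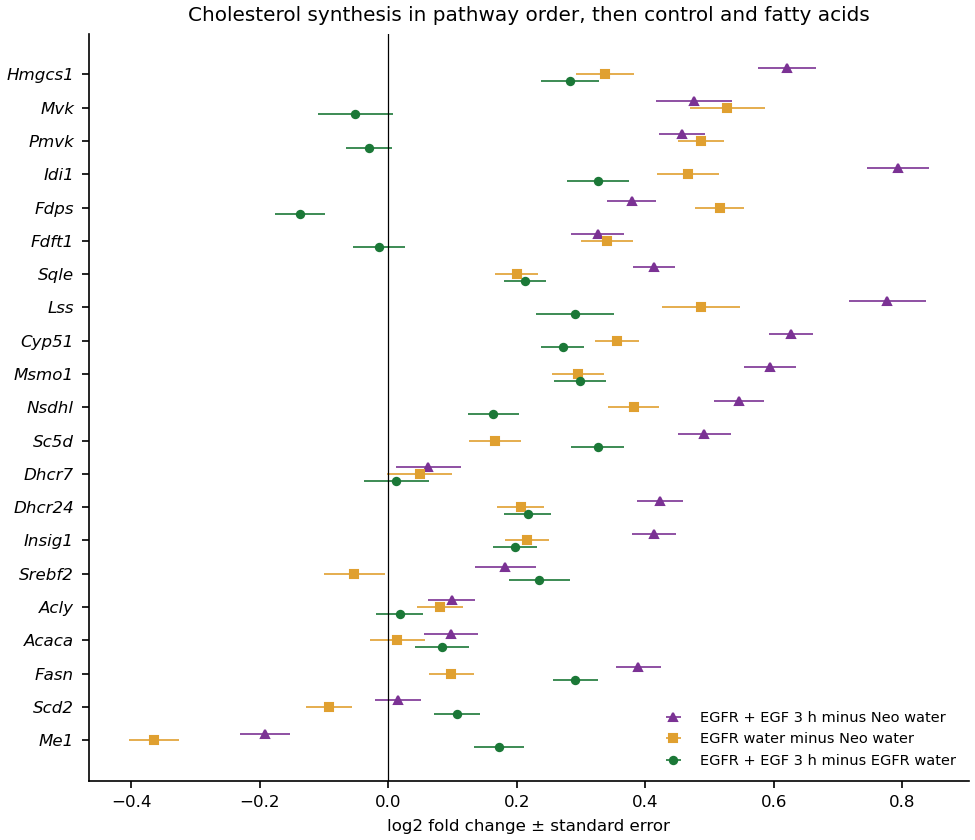
Log2 fold change with its standard error for cholesterol synthesis genes in pathway order, then control and fatty acid genes, for the comparison (purple triangles), the line step in water (orange squares) and the EGF step (green circles). Sc5d and Fasn have a larger green than orange value, while for Mvk, Pmvk and Fdft1 the green mark lies near 0.

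Genes listed as FOXO and growth-restrained genes were mostly lower. Of 27 tested, 18 were lower (23.4% of all genes were) and 2 higher (1 without EGF 1, and 17.9% of all genes), with a median log2 fold change of -0.26 (-0.09 in the line step and -0.23 in the EGF step). Fbxo32, the ubiquitin ligase atrogin-1, was 6.19 and 5.87 FPKM in Neo, 4.78 and 4.99 FPKM in EGFR cells in water and 1.61 and 1.66 FPKM with EGF. It fell by 1.41 (SE 0.06, adjusted p = 3.7e-08). Klhl24, a kelch adapter, fell from 16.7 and 17.2 FPKM to 6.24 and 5.80 FPKM, by 1.35 (SE 0.05, adjusted p = 1.9e-08), with 15.5 and 14.7 FPKM in water. Sgk1, a kinase related to AKT, fell from 54.7 and 52.3 FPKM to a mean of 20.7 FPKM, by 1.33 (SE 0.05, adjusted p = 2.5e-08), and was 58.6 and 58.3 FPKM in water. In these 3 genes both EGF libraries lay below all 4 others.

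Hbp1, a repressor of proliferation genes, fell from 30.1 and 29.2 FPKM (27.4 and 26.5 FPKM in water) to 12.3 and 14.0 FPKM, by 1.12 (SE 0.05, adjusted p = 1.4e-07), with 39.9% of its transcript shared with Cog5. Ypel3 fell by 1.01, the unusual cyclin Ccng2 by 0.91 and Foxo3 itself by 0.56. Txnip, which curbs glucose uptake, averaged 58.2 FPKM in Neo, 36.8 FPKM in EGFR cells in water and 42.8 FPKM with EGF (log2 fold change -0.43, adjusted p = 0.00017). The 2 higher genes were Foxo1 (0.31) and Trib1 (0.41). Of 21 list members with a promoter, 3 (14.3%) hold the forkhead letters GTAAACA on either strand in the 250 bases before the start (Txnip, Hbp1 and Bcl2l11), as do 2.0% of the tested genes with a promoter. Of 19 ERK list members with a promoter, none holds the ETS letters ACCGGAAG, and 4.0% of the tested genes with a promoter do.

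Of 14 glucocorticoid-induced genes tested, 7 were lower, against 23.4% of all genes, and 1 (Errfi1) higher, with a median of -0.26. Besides Sgk1 these included Tat, tyrosine aminotransferase, which went from 10.8 in both Neo libraries to 5.53 and 5.99 FPKM (log2 fold change -0.80, SE 0.10, adjusted p = 0.00011), and was 11.1 and 12.6 FPKM in water. Ddit4, also a hypoxia-induced gene, fell by 0.50 (adjusted p = 2.2e-06), from 55.4 and 57.3 FPKM to 39.7 and 39.6 FPKM. Fkbp5 and Tsc22d3, both used as reporters of the receptor, did not pass, with log2 fold changes of 0.08 and -0.02. Nr3c1, the glucocorticoid receptor, was 42.8 and 43.7 FPKM in Neo and 34.4 and 35.0 FPKM with EGF, a fall by 0.31 (SE 0.03, adjusted p = 6.7e-05), with 42.5 and 42.2 FPKM in water.

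**Figure D5:**
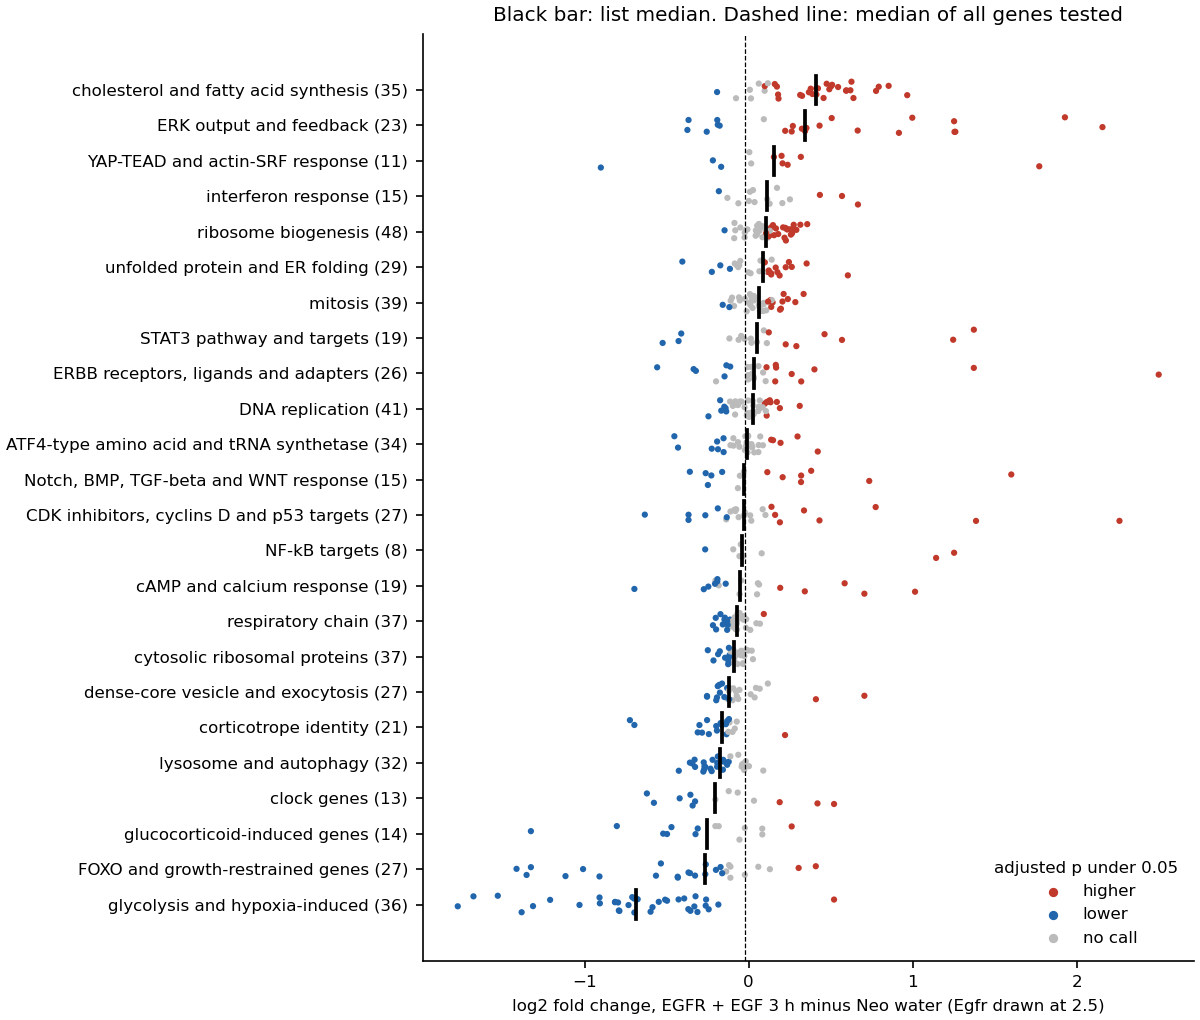
Log2 fold changes (EGFR line with EGF for 3 h minus Neo in water, horizontal axis) of the tested members of each gene list except that for other pituitary lineages. Each gene is 1 point, red where higher, blue where lower and grey where not called, and the number tested is in brackets. Egfr (4.74) lies beyond the axis and is drawn at its right edge. Black bars are list medians, which run from 0.41 for cholesterol and fatty acid synthesis to -0.69 for glycolysis and hypoxia-induced genes, and the dashed line is the median of all genes.

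Pomc and most corticotrope genes were slightly lower. Pomc was 8798 and 8930 FPKM in Neo, 8240 and 8307 FPKM in EGFR cells in water and 6981 and 7430 FPKM with EGF, and the 3 groups did not overlap. Its log2 fold change was -0.30 (SE 0.05, 95% interval -0.41 to -0.19, adjusted p = 0.0010). With quantile scaling the value is 0 by construction, because Pomc ranks first in every library. Pomc (ENSMUSG00000020660) lies on chromosome 12 from 3954951 to 3960618 on the plus strand. Tbx19, which drives Pomc in this lineage, was 96.7 and 88.9 FPKM in Neo and 84.9 and 83.8 FPKM with EGF (log2 fold change -0.13, SE 0.05, adjusted p = 0.035), with 88.4 and 92.4 FPKM in water. That call was lost under 12 of the 21 alternatives tried, and its adjusted p was 0.26 without Neo 1, 0.082 without EGF 1 and 0.11 without EGF 2.

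Of 21 corticotrope genes tested, 15 were lower (71.4%, against 23.4% of all genes) and 1 higher, with a median of -0.16. Without Neo 1, 9 were lower. Nr4a2, an orphan nuclear receptor that acts on the Pomc promoter, fell from 17.6 and 18.4 FPKM to 10.3 and 11.2 FPKM, by 0.70 (SE 0.06, adjusted p = 9.6e-06). EGFR cells in water, at 18.9 and 18.0 FPKM, lay level with Neo. Pitx1 (-0.08) and Neurod1 (-0.12) did not pass. The higher gene was the somatostatin receptor Sstr2 (0.22, adjusted p = 0.0020), while Sstr5 was lower (-0.24, adjusted p = 0.00099).

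Secretory genes were mixed. Of 27 dense-core vesicle and exocytosis genes, 12 were lower (44.4%, against 23.4% of all genes), 2 higher and 13 not called, with a median of -0.12; 4 were lower without Neo 1 and 6 without EGF 1. Pam, which amidates peptides, fell by 0.25, as did Scg5, the chaperone of the convertase PCSK2, which this list shares with the corticotrope genes. Vgf, a granin-like neuropeptide precursor, rose from 36.5 and 33.0 FPKM to 56.6 and 58.0 FPKM, by 0.71 (SE 0.05, adjusted p = 1.4e-06), with 28.6 and 29.4 FPKM in EGFR cells in water. Syt4, a vesicle synaptotagmin, rose from 49.3 and 53.2 FPKM to 72.8 and 64.4 FPKM, by 0.41 (adjusted p = 0.00023). Chga, the most abundant granin, went from 2229 and 2219 FPKM to 1895 and 1987 FPKM (log2 fold change -0.20, adjusted p = 0.0030). Its call was lost with quantile scaling.

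Cell cycle genes changed by small amounts. Of 41 DNA replication genes, 9 were higher and 6 lower with a median of 0.02, a share of calls below the 41.3% over all genes. The higher count was 3 without Neo 1, 5 without Neo 2 and 2 without EGF 2, and the lower count 2 without Neo 1 or EGF 1. Rrm2, the ribonucleotide reductase subunit that limits dNTP supply, rose by 0.31 (SE 0.03, adjusted p = 4.2e-05), from 57.4 and 58.2 FPKM to 72.3 and 71.7 FPKM. Of 39 mitosis genes, 11 were higher (28.2%, against 17.9% of all genes) and 2 lower (against 23.4%), with a median of 0.06. With the common-sum scaling, 21 were higher. The steps of both lists had medians of opposite sign. For mitosis the median was 0.17 for the line in water and -0.11 from water to EGF. For DNA replication it was 0.10 and -0.09 in the same order. Against Neo, the kinesin Cenpe rose by 0.34 (adjusted p = 0.00068) and the proliferation marker Mki67 by 0.29 (adjusted p = 0.00061). The kinase Cdk1 did not pass, with means of 268 and 285 FPKM in Neo and with EGF.

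Among 27 CDK inhibitors, D cyclins and p53 targets, 8 were higher (5 without Neo 2) and 6 lower, shares of 29.6% and 22.2%. Over all genes the shares were 17.9% and 23.4%, so the lower share of the list lay near that of all genes. Besides Cdkn2b and Plk2, the higher genes included Plk3 (0.77, adjusted p = 3.4e-06), Cdkn2a (0.43, adjusted p = 0.0031) and Mdm2 (0.34, adjusted p = 0.00015). Trp53inp1, a p53 target, fell from 18.2 and 19.1 FPKM (20.5 and 19.1 FPKM in water) to 12.2 and 11.2 FPKM, by 0.63 (SE 0.07, adjusted p = 3.7e-05). Trp53 itself averaged 31.3 and 31.5 FPKM in Neo and with EGF. Cdkn1a, the inhibitor p21, averaged 18.8 FPKM in Neo, 14.9 FPKM in EGFR cells in water and 19.1 FPKM with EGF, and was not called.

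Many ribosome biogenesis factors were higher. Of 48 tested, 22 were higher (45.8%, against 17.9% of all genes) and 1 (Nop10) was lower, with a median of 0.11. Wdr43, part of the small subunit processome, rose by 0.36 (adjusted p = 5.1e-05), from 33.0 and 34.5 FPKM to 43.0 and 44.1 FPKM, and Polr1b, a subunit of RNA polymerase I, by 0.27 (adjusted p = 0.00053). Of 37 cytosolic ribosomal proteins, 11 were lower, a share of 29.7% near the 23.4% of all genes, with a median of -0.09, and quantile scaling gave 5 higher and 5 lower. Their count of lower genes depended strongly on which library was left out, and their median ran from -0.14 without EGF 2 to -0.04 without EGF 1. Of 37 respiratory chain subunits, 11 were lower, again 29.7%, and 1 was higher, with a median of -0.07, with 3 lower without Neo 1, 5 without EGF 1 and 19 without EGF 2. Most ribosomal protein genes have near-identical copies, which makes their reads uncertain.

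In the endoplasmic reticulum list, 13 of 29 genes were higher (44.8%, against 17.9% of all genes) and 4 lower (2 without Neo 1 or EGF 1), with a median of 0.09. The medians of the steps were 0.05 for the line in water and 0.01 for EGF. Ern1, the stress sensor IRE1, rose most, from 9.60 and 8.90 FPKM to 14.7 and 14.5 FPKM, by 0.61 (SE 0.05, adjusted p = 5.7e-06). The chaperone Hspa5 (BiP) rose by 0.19 (adjusted p = 0.0035), with means of 745 and 850 FPKM. Derl3, which helps remove misfolded proteins, fell by 0.40 (adjusted p = 0.00048). Of 34 ATF4-type genes, 5 were higher (10 with the common-sum scaling) and 7 lower, shares of 14.7% and 20.6% that lie near those of all genes, led by Nupr1 (-0.45), Chac1 (-0.43) and Ddit3 (0.42). Atf4 itself averaged 221 FPKM in Neo and 194 FPKM with EGF (log2 fold change -0.19, adjusted p = 0.0018).

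Lysosome and autophagy genes were lower in 23 of 32 cases, against 23.4% of all genes, and higher in none, with a median of -0.18. The count was 15 without Neo 1 and 15 without EGF 1. Glb1, lysosomal beta-galactosidase, fell from 24.9 and 23.2 FPKM to 18.6 and 18.5 FPKM, by 0.36 (SE 0.04, adjusted p = 0.00011). The protease Ctsd averaged 266 FPKM in Neo and 210 FPKM with EGF (log2 fold change -0.34, adjusted p = 0.00014), with 38.0% of its transcript shared with another annotated gene. The pump subunits Atp6v1a (0.00) and Atp6v1h (-0.02) did not pass.

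Smaller lists held a few strong responders each, and their counts stand beside 17.9% higher and 23.4% lower over all genes. Of 19 cAMP and calcium response genes, 5 were higher and 7 lower (4 without Neo 1). Rgs2, which limits G protein signalling, rose from 4.32 and 5.02 FPKM to 9.76 and 11.1 FPKM, by 1.01 (SE 0.10, adjusted p = 2.7e-05). Nr4a2 had the lowest log2 fold change of this list (-0.70). Of 15 Notch, BMP, TGF-beta and WNT response genes, 7 were higher and 5 lower, with Tgif1, a SMAD corepressor, at 0.74 (adjusted p = 9.6e-06) behind Hes1. In the YAP and SRF list of 11 genes, 6 were higher, among them Enc1 (1.77), the largest change of the list, and Srf (0.32). Another 3 were lower, with Amotl2, a YAP-binding angiomotin, falling by 0.90 (adjusted p = 1.4e-06).

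Immune and clock lists were mixed, and their counts also stand beside 17.9% higher and 23.4% lower over all genes. Of 15 interferon response genes, 3 were higher, among them Irf1 and Isg15, a share of 20% near the 17.9% of all genes, and 1 lower (H2-D1), with 6 higher when either EGF 18 h library was left out. Irf1 rose by 0.67 (adjusted p = 1.3e-05), from 8.30 and 7.89 FPKM to 12.7 and 14.2 FPKM. The call on Isg15 was lost without Neo 2 (adjusted p = 0.16), EGF 1 (0.13) or EGF 2 (0.092), and 62.7% of its transcript is shared with another annotated gene. Of 8 NF-kB targets, 2 were higher (Ier3 at 1.25 and Nfkbie at 1.14) and 1 lower (Birc2 at -0.26). Of 13 clock genes, 6 were lower, led by Nr1d2 (-0.62, with 29.5% of its transcript shared with another gene) and Tef (-0.58), and 3 higher, which were Bhlhe40, Cry1 (0.42) and Clock (0.19).

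Some genes differed little in this comparison while the EGFR water libraries lay apart. There were 270 genes with an absolute log2 fold change under 0.1 whose steps were called in opposite directions. Both steps share the 2 water libraries, so a deviation of those alone gives this pattern, and the count is a description of genes chosen for it. Akr1c14, a steroid-metabolising reductase, was 53.1 and 50.3 FPKM in Neo, 68.4 and 68.6 FPKM in EGFR cells in water and 49.9 and 53.3 FPKM with EGF. Por, the electron donor of cytochrome P450 enzymes, was 57.4 and 57.2 FPKM in Neo, 43.4 and 46.4 FPKM in water and 56.6 and 60.3 FPKM with EGF. St8sia3, a sialyltransferase, was 17.7 and 17.8 FPKM in Neo, 13.0 and 13.7 FPKM in water and 17.4 and 16.7 FPKM with EGF. Dnajc12, Ap3s1 and Brix1 were chosen by the same rule. Brix1 was 24.7 and 32.8 FPKM in Neo, and it was lower without Neo 1 (-0.18) and higher without Neo 2 (0.22). For Akr1c14, Por and St8sia3 the water libraries lay apart from both other groups.

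The remaining large decreases came from genes of varied roles. Upk3a, a uroplakin, was 8.61 and 10.6 FPKM in Neo, 2.39 and 2.44 FPKM in EGFR cells in water and 2.37 and 2.16 FPKM with EGF, and fell by 1.70 (SE 0.10, adjusted p = 5.9e-07). Selenbp1, a selenium-binding protein, fell by 1.32 (SE 0.08, adjusted p = 1.1e-06), from 7.31 and 8.41 FPKM through 2.73 and 2.58 FPKM in water to 2.59 and 2.47 FPKM, but 99.7% of its transcript is shared with Selenbp2. Elf3, an epithelial ETS factor, fell in both steps, from 40.9 and 37.0 FPKM through 25.6 in both water libraries to 16.6 and 17.5 FPKM (log2 fold change -1.15, adjusted p = 1.1e-07). Lars2, the mitochondrial leucyl-tRNA synthetase, was 8.44 and 7.64 FPKM in Neo and 2.34 and 2.52 FPKM with EGF (log2 fold change -1.40, SE 0.31, adjusted p = 0.0050). Its replicates differed in the EGFR line in water, at 5.25 and 2.18 FPKM, and with EGF for 18 h, at 5.44 and 2.15 FPKM. Prr15l fell by 1.09 (adjusted p = 2.5e-08).

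Among the 10 most abundant protein-coding genes, 3 were called, all lower: Pomc, Chga and Gnas. Over all genes 41.3% were called, so this count is not above that of all genes. Without EGF 2, Eef1a1, Rps21, Rpl41 and Rpl13a were called lower as well (adjusted p = 0.010 to 0.016). Gnas, the stimulatory G protein subunit, was 1663 and 1552 FPKM in Neo and 1395 and 1420 FPKM with EGF (log2 fold change -0.19, adjusted p = 0.0056), and the call was lost without Neo 1 (adjusted p = 0.064) and with quantile scaling (0.17). The other 7, which were Eef1a1, Rps21, Atp5b, Rpl41, Ppia, Rpl13a and Ptma, had log2 fold changes of -0.11 to -0.01.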

How the data were processed

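RNA of AtT-20 cells was extracted on columns and reverse transcribed with Superscript III, per the labels' protocols. The authors deposited FPKM for 12193 loci per library, and these values were used as deposited. Per the submitters' processing notes the tools were Trimmomatic 0.22, TopHat2 2.0.8, HTSeq 0.5.4 and DESeq on mm10. The program behind the FPKM values, the depth and the strandedness: not given in the sources used here. Each deposited table holds 93 to 110 positive values under 1e-06 so values are not multiples of a read and no depth was derived. For 16 identifiers with several loci the highest was kept. FPKM shares a library total, so abundant transcripts move all others.

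Genes were tested with limma 3.58.1 (R 4.3.3), trended variance, on log2(FPKM + 1), with all 8 libraries and 4 groups in the fit, and Benjamini-Hochberg adjustment over the 9143 genes (threshold 0.05). The code was tested on simulated data. Lists are described by counts and medians beside all genes. The comparison, lists and named-gene rule were chosen with earlier results of these data known. Named genes were Egfr, Pomc, Stat3, Tbx19 and Socs3; the 15 largest called changes each way with non-overlapping libraries and FPKM of at least 5, without clone, pseudogene and ribosomal names; up to 4 called members per list; 6 genes with opposite steps; and the 10 most abundant. Further list members are named to describe their lists, after their values were seen. Copies were M21 transcripts aligned with minimap2 2.31 at 95% identity over 200 bases, and a share of 20% or more made a value uncertain. Promoters come from RefSeq on GRCm38.p6. Alternatives were pseudocount, filter, scaling, groups in the fit, trend, replicate block, gene set, threshold and leaving out each library. Python 3.11.15, pandas 2.3.3 and matplotlib 3.10.9 were used. Values of 5 list members are not reported here, though they stay in the counts and medians.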

Additional observations from a re-analysis of the deposited data

How the results depend on the processing

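Of the 124 named genes, 107 kept their direction and side of the threshold under every alternative chosen at the outset. At an adjusted p of 0.01, 2226 genes were called, 964 higher and 1262 lower. Leaving out each library gave 2618 to 3595 calls, 1207 to 1542 higher and 1399 to 2134 lower, with 31 to 36 genes at least 2-fold higher and 17 to 20 at least 2-fold lower. Chga had a value of 0 with quantile scaling, by the same tie of ranks as Pomc. Brix1, which was not called, was lower without Neo 1 (-0.18) and higher without Neo 2 (0.22), where Neo 1 and 2 differ at 24.7 and 32.8 FPKM, and the cause was not tested. The labels do not say whether replicate numbers pair the samples. Deviations of same-numbered Neo and EGF libraries correlated at -0.18, which cannot settle this with 2 libraries per group. With the replicate block, 1556 genes were higher and 2057 lower. In fits of the 2 groups alone, added after seeing the data apart from the first, 1398 and 1828 genes passed without a block, 1220 and 1620 with the replicate block and 1826 and 2394 with crossed numbers. Depth is unknown, so no counting error can be given for genes near 1 FPKM.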
